A study of Rattus norvegicus with 105 samples.

Results

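The circadian clock genes followed here were Bmal1, Clock, Per1, Per2, Per3, Cry1, Cry2, Nr1d1, Nr1d2 and Dbp, measured in rat frontal cortex. They were chosen by name: every probe set whose symbol in the platform's annotation was a member was kept, with no use of its values. All 10 genes were on the array, with 18 of its 31042 probe sets and 10 of its 14217 named genes. The arrays came from 3 experiments. In the lesion experiment, rats whose ventral hippocampus had been lesioned gave 12 arrays and sham rats 10. In the tetrodotoxin (TTX) experiment, 11 arrays came from rats whose ventral hippocampus had been treated with TTX, a sodium channel blocker that silences neurons, and 9 from sham rats. The neuroleptic experiment held 9 vehicle arrays, 10 at low, 9 at medium and 8 at high clozapine, and 9 at every level of haloperidol (low, medium and high), given chronically. Clozapine is an atypical and haloperidol a typical antipsychotic, and their dose levels were words in the labels, with no amounts. Strain, sex, age and time of day at tissue collection were not in the labels, which also did not say whether each array was a separate animal. The p-values therefore measure the spread between these arrays, part of which may be technical.

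The mammalian clock is a transcriptional loop. BMAL1 and CLOCK pair on E-boxes and switch on the Per and Cry genes, whose proteins then repress that pair, and also Nr1d1 and Nr1d2 (REV-ERB alpha and beta), which repress Bmal1 through ROR elements. Dbp, a PAR bZIP factor driven by the same E-boxes, carries the rhythm to D-box genes, so Dbp, Nr1d1 and the Per genes peak roughly opposite to Bmal1. In the cortex the loop runs in neurons and glia alike, and Per1 is in addition an immediate early gene that answers neuronal activity and glucocorticoids.

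RefSeq promoter windows of 300 bases, 250 before and 50 after a gene's start in the GRCr8 assembly, were found for 9 of the 10 genes, 11 windows in all; Cry1 had none. Each was searched on both strands for the E-box (CACGTG), the D-box (TTATGTAA or TTACGTAA), the ROR element (TAGGTCA or TGGGTCA) and the cAMP response element (TGACGTCA). The 3 windows with a match are printed 5′ to 3′ on the gene's own strand, with the match in capitals. They hold an E-box in Nr1d1 191 bases before the start, a D-box in Per2 192 bases before it, and a ROR element in Bmal1 16 bases before it.
Nr1d1, E-box, chr10:84229405-84229704, minus strand: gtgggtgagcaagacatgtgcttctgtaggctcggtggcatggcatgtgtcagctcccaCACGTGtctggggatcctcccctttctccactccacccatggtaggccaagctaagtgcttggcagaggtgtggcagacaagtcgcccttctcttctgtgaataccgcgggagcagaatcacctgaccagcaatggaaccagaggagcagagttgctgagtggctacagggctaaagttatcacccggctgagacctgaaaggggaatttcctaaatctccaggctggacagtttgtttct
Per2, D-box, chr9:99496944-99497243, minus strand: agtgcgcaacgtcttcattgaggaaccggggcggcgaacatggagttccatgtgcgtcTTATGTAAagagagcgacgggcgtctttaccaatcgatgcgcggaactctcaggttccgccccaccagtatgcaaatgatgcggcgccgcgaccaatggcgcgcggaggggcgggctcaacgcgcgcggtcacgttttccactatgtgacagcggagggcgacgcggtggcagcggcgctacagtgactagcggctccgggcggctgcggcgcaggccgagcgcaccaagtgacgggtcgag
Bmal1, ROR element, chr1:176766078-176766377, plus strand: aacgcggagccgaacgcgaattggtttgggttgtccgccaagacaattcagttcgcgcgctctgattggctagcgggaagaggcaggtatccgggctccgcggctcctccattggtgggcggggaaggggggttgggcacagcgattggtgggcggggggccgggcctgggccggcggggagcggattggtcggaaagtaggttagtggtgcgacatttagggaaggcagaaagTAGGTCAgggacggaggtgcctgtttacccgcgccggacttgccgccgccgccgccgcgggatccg
Of all 33469 windows of this length, 6.42% held the E-box, 1.01% the D-box, 6.6% the ROR element and 1.83% the cAMP response element, which was in 0 of the 11 member windows. The E-box, the D-box and the ROR element were each in 1 of the 11. No E-box was found in the windows of Dbp or the Per genes. A match is a description of these letters only, and each of the 3 windows held 1 match.

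Array medians ran from 775 to 962 intensity units before normalisation, and precision is limited by how many arrays a group has. Markers of pyramidal neurons lay at mean log2 levels of 13.4 to 14.9 over the experiments, the defining neurons of the labelled tissue. Altogether 4 arrays (lesion replicate 7, lesion sham replicate 9, haloperidol high replicate 8 and haloperidol medium replicate 8) correlated less with the rest of their experiment. Levels below are log2 of intensities normalised within an experiment, so they are compared between groups of 1 experiment and not between genes. In tissue RNA, fewer cells of a type and less RNA per cell cannot be told apart. Of the 18 member probe sets, 16 were bright enough to be tested in the lesion and TTX experiments and 15 in the neuroleptic experiment. The weaker Per2 and the weakest Clock probe sets (1378560_at and 1369168_a_at) passed in no experiment, and the weaker Per3 probe set (1388239_at) did not pass in the neuroleptic arrays. Each gene is represented by its brightest probe set unless another is named.

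The clock genes differed in how much they varied from array to array within groups. The residual SD of Per1 was above that of 90.0% of all tested probe sets for lesion and sham, 98.7% for TTX and sham, and 98.2% over the neuroleptic groups. In the neuroleptic arrays 1 array carried much of it: without haloperidol high replicate 8 the SD of Per1 went from 0.566 to 0.38 and its share to 90.3%. For Dbp these shares were 92.9%, 58.7% and 43.4%. The brightest Cry2 probe set (1372548_at) varied little, with 8.96%, 11.2% and 2.62%. The weaker one (1369446_at) did not share this, with 70.1%, 78.1% and 71.7%.

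**Figure D1:**
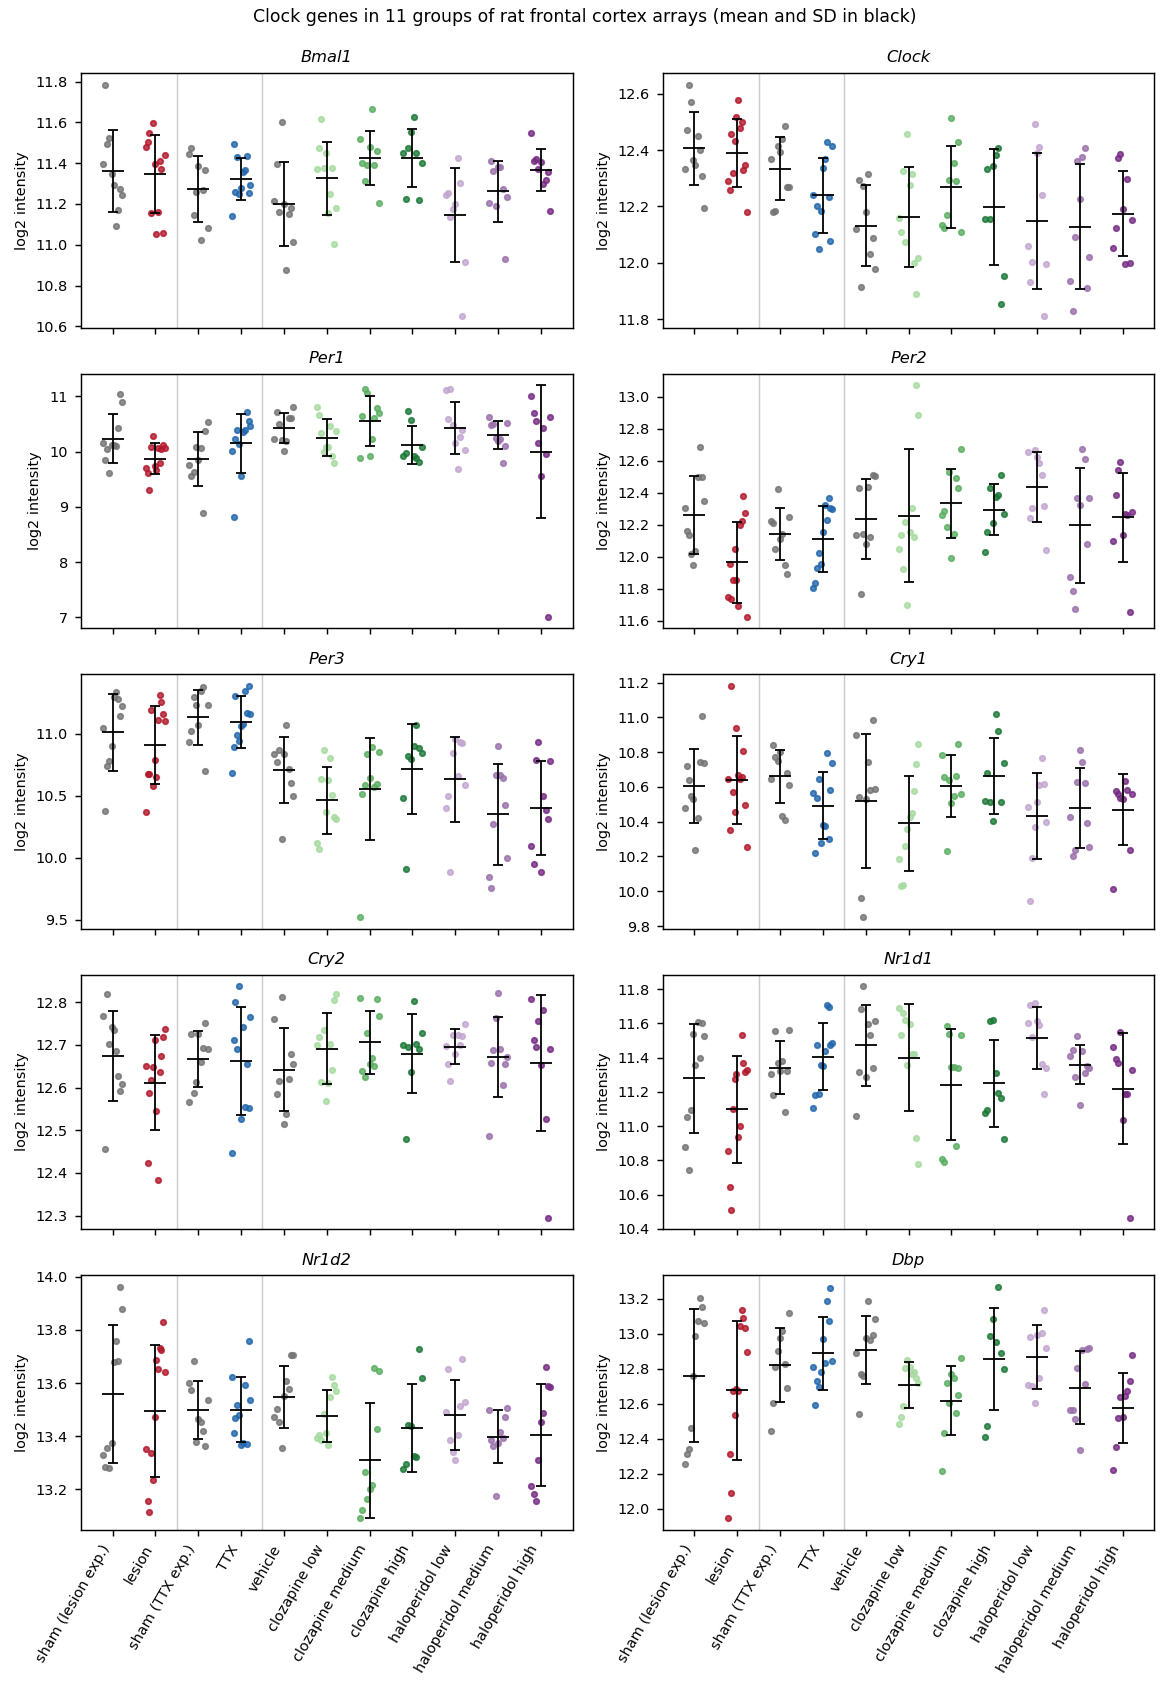
Log2 intensity (y axis) of the brightest probe set of each clock gene in the 11 groups (x axis). Points are arrays, black bars the mean and SD, and grey lines part the 3 experiments. Every treated group overlaps its control in every gene, and 1 haloperidol high array lies at 7.01 for Per1.

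The first question was whether silencing or lesioning the ventral hippocampus moved the cortical clock genes. With limma and Benjamini-Hochberg adjustment over 18625 probe sets, none of the 16 member probe sets passed an adjusted p of 0.05 in lesion against sham, where 0% of all tested probe sets did. The closest were Per2 and Per1, both light- and activity-responsive repressor genes. Per2 lay between 11.6 and 12.4 in the 12 lesion arrays (median 11.9) and between 11.9 and 12.7 in the 10 sham arrays (median 12.2). Within the 2 runs of sample numbers in the titles (blocks), its lesion difference was -0.25 and -0.35. Its log2 difference over all arrays was -0.30 ± 0.10 (SE; adjusted p = 0.564), with 10 of 12 lesion arrays below the sham mean. Per1 lay between 9.31 and 10.3 after lesion (median 9.92) and between 9.61 and 11.0 in sham (median 10.1), a difference of -0.36 ± 0.15 (adjusted p = 0.602), with 11 of 12 arrays below the sham mean; it was -0.25 without the arrays that stood apart and -0.17 and -0.56 within the blocks. The groups overlapped for both genes. At an unadjusted p under 0.05, 2 of 16 member probe sets were lower and 0 higher, beside 7.81% of all tested probe sets in either direction. The median difference over the 16 was -0.06, against -0.0012 over all tested probe sets.

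Bmal1, which encodes the E-box activator, was at a median of 11.4 after lesion and 11.3 in sham, a difference of -0.01 ± 0.08. Its partner Clock stood at 12.4 in both groups. Dbp ran from 11.9 to 13.1 after lesion (median 12.7) and from 12.3 to 13.2 in sham (median 12.9), so the range within each group was wide and the groups overlapped. Its difference of -0.08 ± 0.16 lay well inside that spread, as did that of Nr1d2, whose medians were 13.6 and 13.5.

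After TTX, 0 of 16 member probe sets passed, as did 0% of all tested probe sets. Dbp lay between 12.6 and 13.3 in the 11 TTX arrays (median 12.8) and between 12.4 and 13.1 in the 9 sham arrays (median 12.8). Cry1, a repressor of the loop, was at a median of 10.5 against 10.7 in sham, a difference of -0.17 ± 0.08 (adjusted p = 0.999). A second Clock probe set (1390199_at) ran from 11.8 to 12.0 after TTX and from 12.0 to 12.2 in sham, a difference of -0.13 ± 0.04 (adjusted p = 0.999), with 11 of 11 arrays below the sham mean. Clock's brightest probe set differed by -0.09. Those 2 of 16 with an unadjusted p under 0.05 stand beside 4.63% of all tested probe sets. Per1 was at a median of 10.3 after TTX and 9.85 in sham, a difference of 0.28 ± 0.21, opposite in sign to that after lesion. Activity-regulated genes (Fos, Egr1, Arc, Junb, Nr4a1 and Dusp1) are given beside Per1: 0 of 6 had higher values after lesion (median difference -0.21) and 5 of 6 after TTX (median 0.25), 0 passing in either, and their part in the Per1 values was not tested. For Per1, lesion effect minus TTX effect was itself tested in a joint fit and was -0.65 ± 0.27 (adjusted p = 0.714), where 0% of all tested probe sets passed; at an unadjusted p under 0.05 it was 1 of 16 members, beside 6.34% of all.

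The second question was whether chronic clozapine or haloperidol moved the same genes. No member probe set passed in the drug means against vehicle, of 15 tested, where 0% of all tested probe sets passed for clozapine and 0.0161% for haloperidol. Both drugs were set against the same 9 vehicle arrays, so their differences are not independent of each other. For Dbp, whose product is a D-box activator, vehicle ran from 12.5 to 13.2 with a median of 13.0. The medians were 12.8, 12.7 and 12.9 at low, medium and high clozapine, and 12.9, 12.7 and 12.6 at low, medium and high haloperidol. The mean differences were -0.18 ± 0.08 for clozapine, with 23 of 27 arrays below the vehicle mean, and -0.20 ± 0.08 for haloperidol, with 19 of 27 (adjusted p = 0.977 and 0.646). Every dose level overlapped vehicle, and low haloperidol and high clozapine lay closest to it.

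Nr1d2, a repressor of Bmal1, was also lower in both drugs. Its probe set 1370541_at differed by -0.20 ± 0.06 for clozapine (23 of 27 arrays) and -0.16 ± 0.06 for haloperidol (23 of 27), with adjusted p of 0.977 and 0.646. Bmal1 had the opposite sign under clozapine: vehicle ran from 10.9 to 11.6 (median 11.2), and the medians at low, medium and high clozapine were 11.4, 11.4 and 11.4. The difference was 0.19 ± 0.07, with 24 of 27 clozapine arrays above the vehicle mean (adjusted p = 0.977). Under haloperidol the Bmal1 difference was 0.06 ± 0.07. Per3 differed by -0.13 under clozapine and by -0.24 under haloperidol, the largest haloperidol difference of the members. Nr1d1 differed by -0.17 and -0.11, and Per2 by 0.06 under each drug. Per1 differed by -0.12 ± 0.21 and -0.19 ± 0.21 under clozapine and haloperidol, while 6 of 6 activity-regulated genes had higher values under each (median differences 0.42 and 0.47), 0 of them passing. Without haloperidol high replicate 8 the Per1 difference under haloperidol was -0.06 ± 0.14. At an unadjusted p under 0.05, 4 of 15 member probe sets stood out under clozapine and 3 of 15 under haloperidol, against 3.81% and 6.73% of all tested probe sets. Probe sets of the same gene are counted separately, so these are not counts of genes. In the contrast of the drugs, where 1.2% of all tested probe sets passed, 0 of 15 did; Bmal1 was 0.13 ± 0.05 higher under clozapine (adjusted p = 0.132) and the weaker Cry2 probe set (1369446_at) 0.20 ± 0.08 higher (adjusted p = 0.169), while Cry2's brighter probe set differed by 0.01.

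**Figure D2:**
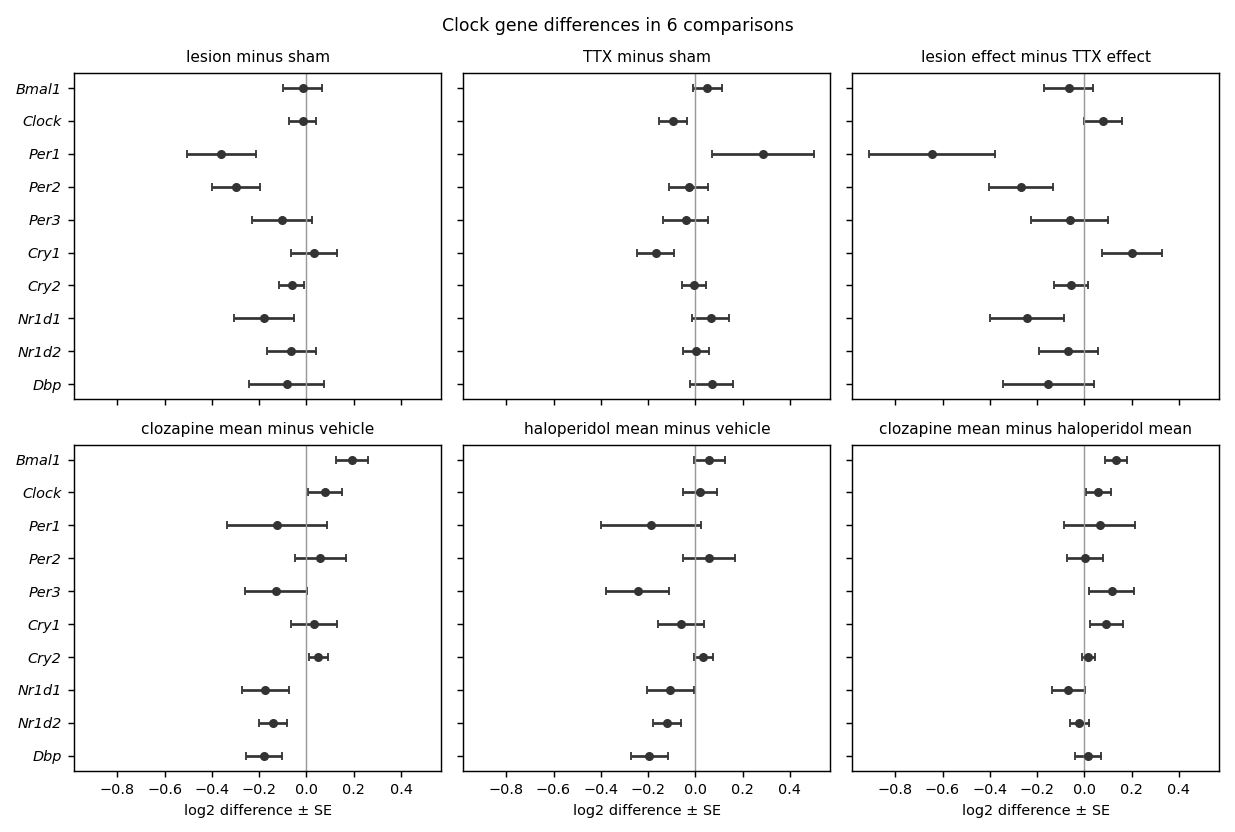
Log2 difference ± SE (x axis) of the brightest probe set of each clock gene (y axis) in 6 comparisons. Per1 and Per2 lie at -0.36 and -0.30 in the lesion panel, and Dbp and both REV-ERB genes lie left of 0 for both drugs, without any passing the adjusted threshold.

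At single dose levels, all against the same vehicle arrays, medium clozapine and high haloperidol stood farthest from vehicle. With groups alone in the model, 0 of 15 member probe sets passed at either, where 0.0215% and 0.0268% of all tested probe sets did. At medium clozapine, Nr1d2 (1370541_at) ran from 12.4 to 12.9 (median 12.6), against 12.8 to 13.1 in vehicle (median 12.9), a difference of -0.30 ± 0.08 (adjusted p = 0.266) with 8 of 9 arrays below the vehicle mean. At high haloperidol, Dbp ran from 12.2 to 12.9 (median 12.6), against 12.5 to 13.2 in vehicle, a difference of -0.33 ± 0.10 (adjusted p = 0.334) with 9 of 9 arrays below. The ranges overlapped in both cases. At the other 4 dose levels against vehicle, and between high and low doses of each drug, 0 of 15 passed too, where 0% to 0.00537% of all tested probe sets did. At an unadjusted p under 0.05, it was 1, 4 and 1 of 15 member probe sets at low, medium and high clozapine, beside 2.72%, 4.06% and 3.87% of all. At low, medium and high haloperidol it was 0, 5 and 5 of 15, beside 4.25%, 4.69% and 7.75%. Between high and low clozapine it was 1 of 15 (3.24% of all) and between high and low haloperidol 3 of 15 (5.52%).

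The titles of the samples hold a running number, whose meaning is not in the labels. For this work the numbers were divided into blocks so that each holds controls and treated samples: 2 blocks each for lesion and TTX and 4 for the neuroleptics. The titles name no such blocks, and the blocks were chosen with earlier results of these data known. The lesion and TTX numbers run on without a gap, and the limits, after 46 and after 135, part each experiment into blocks of equal size, between adjacent sham arrays. With the block added to the model, medium clozapine against vehicle gave 2 of 15 member probe sets past the threshold, where 11 of 18625 (0.0591%) passed. Both belonged to Nr1d2: 1370541_at fell by 0.30 ± 0.05 (adjusted p = 0.00123), the smallest p of all probe sets, and 1390430_at fell by 0.24 ± 0.05 (adjusted p = 0.0244). The weakest Nr1d2 probe set, 1370540_at, did not pass, with group means of 10.73 at medium clozapine and 10.84 in vehicle. In 1390430_at, medium clozapine arrays lay at 13.09 to 13.12 against 13.47 to 13.50 in vehicle in block 1, at 13.16 to 13.26 against 13.35 to 13.45 in block 2, and at 13.20 to 13.21 against 13.55 to 13.61 in block 3. They did not overlap in these 3 blocks, each of which held only 2 arrays of either group. In block 4, with 3 of either, they overlapped at 13.43 to 13.66 against 13.58 to 13.71. With so few arrays a separation is easily reached, and its share over all tested probe sets was not counted. High haloperidol also gave 2 of 15, where 0.0591% passed. Dbp fell by 0.33 ± 0.07 (adjusted p = 0.0374) and Nr1d2 (1370541_at) fell by 0.24 ± 0.05 (adjusted p = 0.0273). The brightest Nr1d2 probe set, 1390430_at, did not pass there, and neither did 1370540_at. Group means of 1390430_at were 13.40 at high haloperidol and 13.55 in vehicle. The Dbp means at high haloperidol were 12.29, 12.58 and 12.69 in blocks 1, 2 and 4, against 12.72, 12.77 and 13.01 in vehicle; block 3 held no array of this group.

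Arrays of a group mostly carry adjacent numbers within a block, so the group and the place in the block are not separated by that fit. When each such run of arrays was averaged to 1 value, which left 29 values, 0 member probe sets passed in any comparison, with or without the block. In the averaged values with the block as a term, Nr1d2 (1370541_at) at medium clozapine differed by -0.31 ± 0.06 (adjusted p = 0.202), and Dbp at high haloperidol by -0.32 ± 0.08 (adjusted p = 0.779), where 0% and 0.00537% of all tested probe sets passed. Over single arrays with the block as a term, clozapine against haloperidol gave 0 of 15, where 1.71% of all tested probe sets passed. Over single arrays with the sample number as a covariate in place of the block, Nr1d2 (1370541_at) passed at medium clozapine (adjusted p = 0.00565, with 0.0268% of all passing), and Dbp and Nr1d2 (1370541_at) at high haloperidol (adjusted p = 0.00553 and 0.033, with 0.0537% passing).

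**Figure D3:**
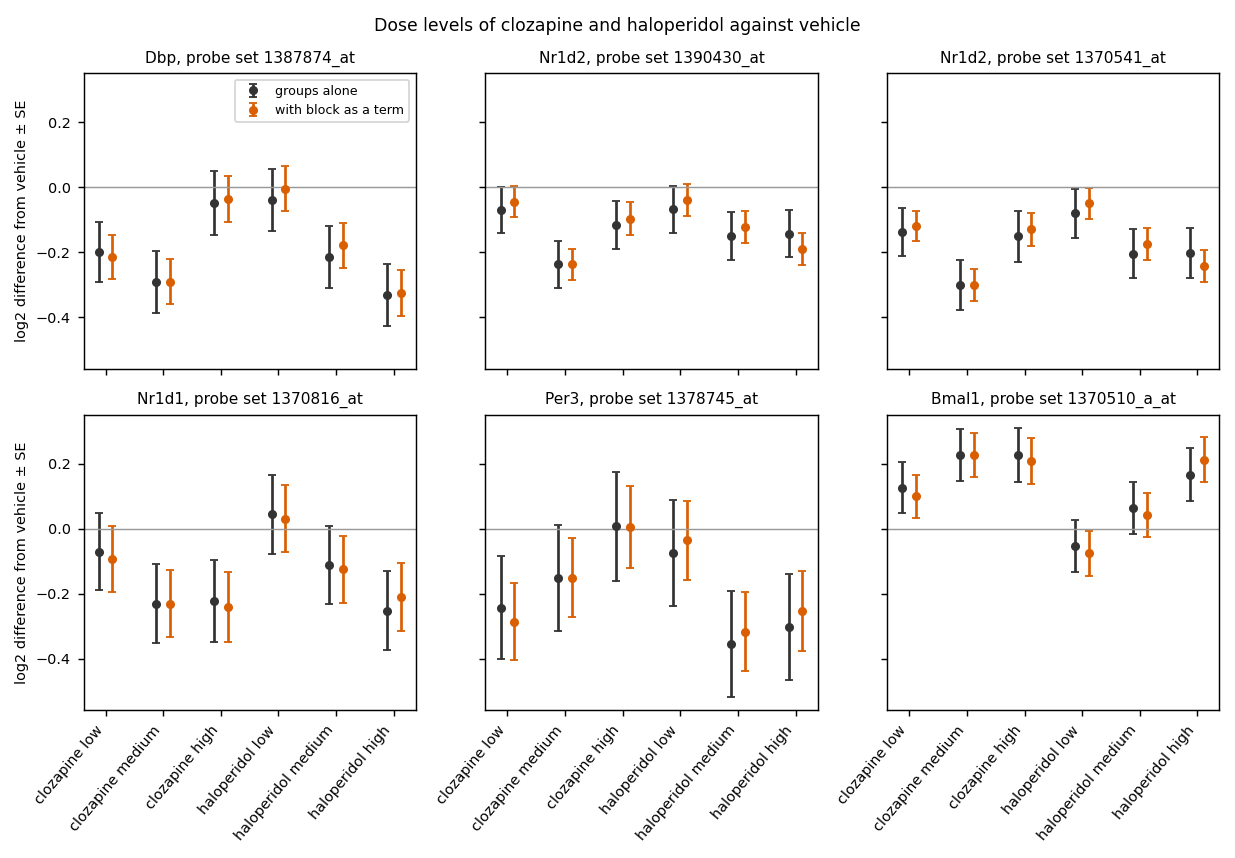
Log2 difference from vehicle ± SE (y axis) at 3 dose levels of clozapine and haloperidol (x axis), with groups alone (black) and with the block of sample numbers as a term (orange). Nr1d2 1370541_at lies lowest at medium clozapine, at -0.30, and Dbp lowest at high haloperidol, at -0.33; the SE is smaller with the block.

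Of the 10 clock genes, Nr1d2, Dbp and Per3 differed between the blocks of the lesion experiment. In a model with group and block, 4 of 16 member probe sets (25%) passed for the block, where 0.424% of all tested probe sets did; with runs of adjacent arrays averaged, 0 passed. All 4 were higher in the second block, which held sample numbers 47 to 57, than in the first, 36 to 46. Members and blocks were chosen with earlier results of these data known, so the p-values for the block are not those of an untouched test. Nr1d2 (1390430_at) had the smallest p of all 18625 probe sets: it lay between 13.1 and 13.5 in block 1 (median 13.3) and between 13.6 and 14.0 in block 2 (median 13.7). These ranges did not overlap, which adds nothing independent to that p, and the share of all tested probe sets without overlap was not counted. Nr1d2 (1390430_at) rose by 0.45 ± 0.05 (adjusted p = 7.44e-05), and its second probe set, 1370541_at, by 0.44 ± 0.07 (adjusted p = 0.0037). Dbp ranked 3 by p: it lay between 11.9 and 12.8 in block 1 (median 12.3) and between 12.7 and 13.2 in block 2 (median 13.1), a rise of 0.64 ± 0.09 (adjusted p = 0.0012). The step was there in both arms, from 12.4 to 13.1 in the sham means and from 12.4 to 13.0 in the lesion means. Per3, a Per paralogue with a smaller part in the loop, rose by 0.43 ± 0.09 (adjusted p = 0.0358), while its weaker probe set (1388239_at) differed by -0.22 ± 0.15. With the limit moved to the nearest change of group, after 45 or after 47, Dbp and the same 2 Nr1d2 probe sets passed each time and Per3 did not, where 0.0859% and 0.548% of all tested probe sets passed.

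Other members of the loop did not pass but had values of the same sign. Nr1d1 differed by 0.36 ± 0.10 (adjusted p = 0.116), the weakest Nr1d2 probe set, 1370540_at, by 0.36 ± 0.09 (0.0729), Per1 by 0.35 ± 0.13 (0.189) and Per2 by 0.24 ± 0.09 (0.191). Bmal1 had the opposite sign, at -0.24 ± 0.07 (adjusted p = 0.0965), with a median of 11.5 in block 1 and 11.2 in block 2. Clock, Cry1 and Cry2 differed by -0.05 ± 0.06, -0.03 ± 0.10 and -0.02 ± 0.05.

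With the sample number itself as a linear term in the lesion experiment, 7 of 16 member probe sets passed, where 0.897% of all tested probe sets did, and the 3 smallest p-values of the array belonged to Dbp and Nr1d2. Dbp rose by 0.53 ± 0.06 per 10 numbers (adjusted p = 0.000101), and the Nr1d2 probe sets 1390430_at and 1370541_at by 0.34 ± 0.04 and 0.36 ± 0.05. Nr1d1, at 0.37 ± 0.07, Per1, at 0.37 ± 0.09, Per3, at 0.34 ± 0.07, and the weakest Nr1d2 probe set, at 0.30 ± 0.07, made up the rest. Arrays with adjacent numbers often share a group. With runs of them averaged, which left 9 values, 0 member probe sets passed, as did 0% of all; Nr1d2, Per3 and Dbp then ranked 4, 10 and 15 of 18625 by p (adjusted p = 0.281, 0.287 and 0.287). Leaving out 1 array at a time gave 3 to 5 member calls, 3 for 14 of the 22 arrays, and leaving out the arrays that stood apart gave 4.

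In the TTX experiment, 2 of 16 member probe sets (12.5%) passed for the block, where 12.9% of all tested probe sets did, so the members' share was near the background. These were Dbp, which rose by 0.24 ± 0.08 from a median of 12.8 to 13.0 (adjusted p = 0.0422), and Nr1d2 1370540_at, which rose by 0.24 ± 0.07 (adjusted p = 0.0308). The brightest Nr1d2 probe set differed by -0.04 ± 0.06. With the limit after 133 in place of 135, Dbp and a Clock probe set passed (26.4% of all), and with it after 137, 0 members did (7.65% of all). Leaving out 1 array at a time gave 1 call for 14 of the 20 arrays and 0 without TTX replicate 2. With the sample number as a linear term it was 1 of 16, where 20.6% of all passed. In the neuroleptic experiment 11 of 15 (73.3%) passed, where 67.8% of all tested probe sets did, again near the background, and 8 of 15 for the sample number, where 28% of all did. Dbp had block medians of 12.5, 12.7, 12.8 and 12.9, and Per3 of 10.1, 10.8, 10.7 and 10.6. Nr1d2 (1390430_at) stood at 13.4, 13.3, 13.4 and 13.6. Bmal1 was 11.4 in the first 3 blocks and 11.2 in block 4. Probe sets of a gene did not always move together: Clock's brightest probe set was 0.25 ± 0.05 higher in block 3 than in block 1 and 1390199_at -0.09 ± 0.04.

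**Figure D4:**
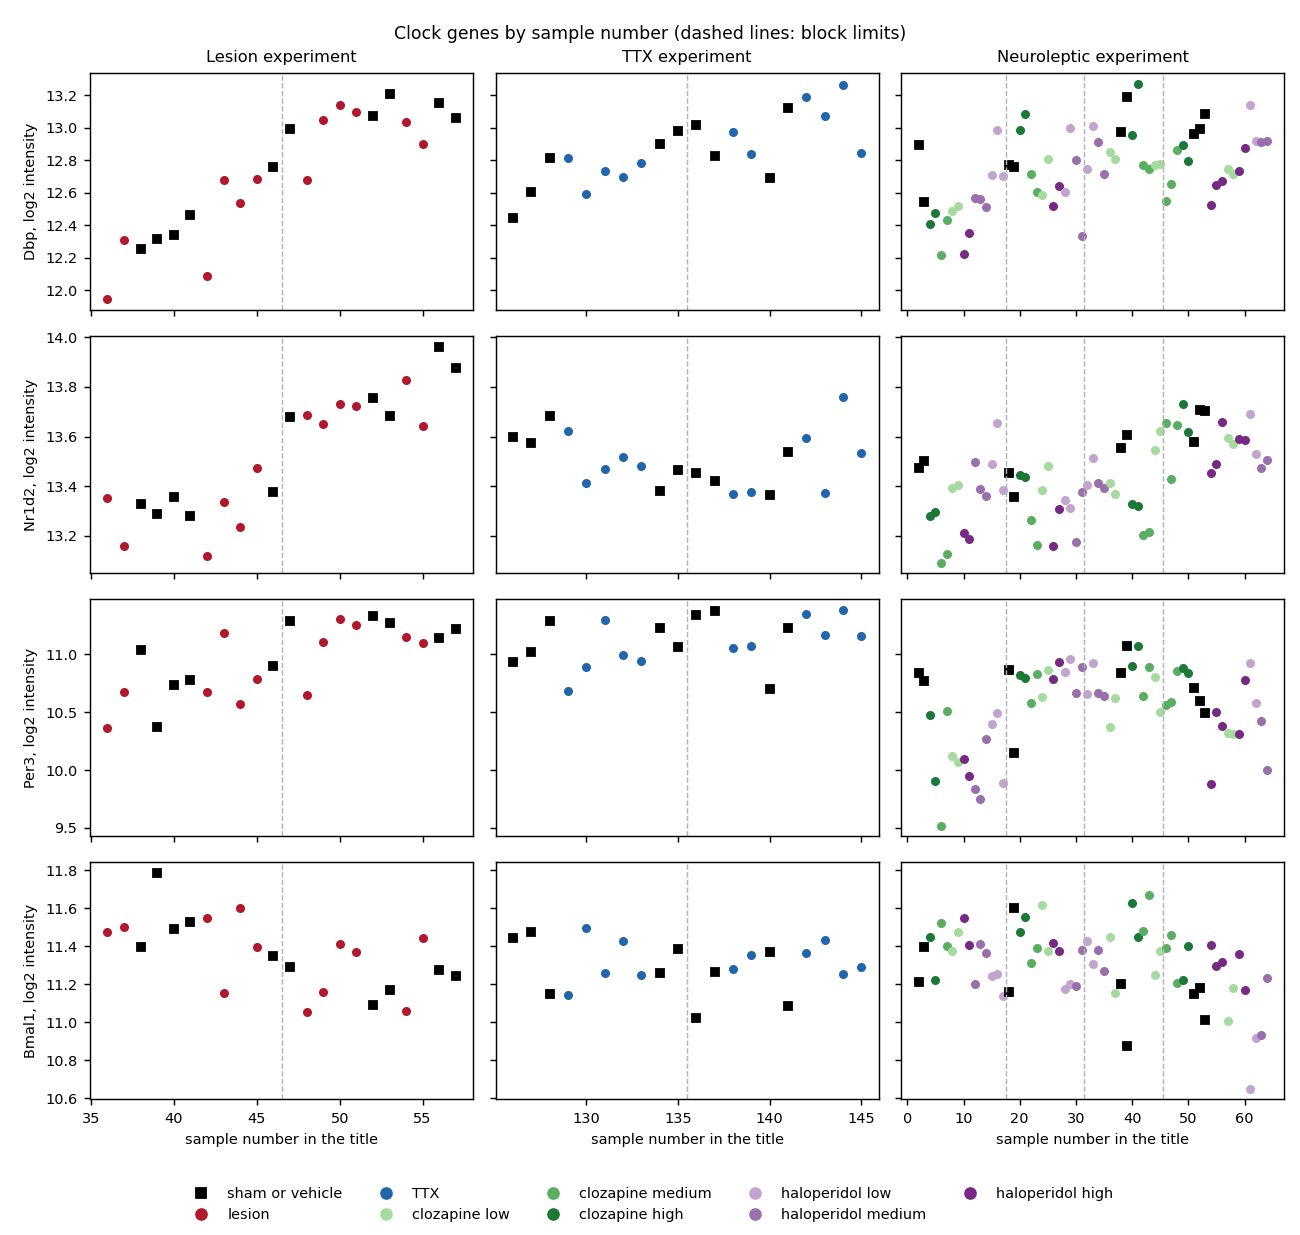
Log2 intensity (y axis) of Dbp, Nr1d2, Per3 and Bmal1 against the sample number in the title (x axis) in the 3 experiments. Squares are sham or vehicle, circles treated arrays, dashed lines block limits; in the lesion panel Nr1d2 lies at or below 13.5 before the line and at or above 13.6 after it in both arms.

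The block differences came with others. In the lesion experiment Tsc22d3, a glucocorticoid-responsive gene, was 0.32 higher in block 2 (adjusted p = 0.0239), the only gene past the threshold of 4 tested of that list (adjusted p = 0.357 with runs averaged); its part in the clock gene differences was not tested. All 5 oligodendrocyte markers and all 5 endothelial and mural markers had higher values in block 2, with 0 of 5 passing in each. The oligodendrocyte list's mean level ran from 13.5 to 14.3 in block 1 and from 13.8 to 14.5 in block 2. The 6 activity-regulated genes had 2 higher and 0 passing. Of the other cell marker lists, 0 genes passed for the block in this experiment.

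Further genes of the clock, from a list of 22 of which 18 were on the array, were set beside the members. In the lesion experiment 15 were tested and 1 passed for the block: Nfil3, a repressor at D-boxes that opposes Dbp, fell by 0.47 (adjusted p = 0.0439). Nfil3 no longer passed without any 1 of 17 of the 22 arrays, or with runs averaged (adjusted p = 0.382). Bhlhe40, an E-box repressor, differed by 0.39 (adjusted p = 0.0787), and Usp2, a clock-controlled deubiquitinase, by 0.27 (0.0954). In the treatment comparisons 0 of 15 passed for lesion and for TTX and 0 of 16 for either drug mean against vehicle. Between the drugs 1 of 16 passed: Hlf, a PAR bZIP paralogue of Dbp, was lower under clozapine than under haloperidol, by -0.31 ± 0.07 (adjusted p = 0.0263), where 1.2% of all tested probe sets passed. With runs of adjacent arrays averaged Hlf did not pass (-0.33 ± 0.07, adjusted p = 0.133; 0.0802 with the block). It also missed the threshold without clozapine high replicate 1 (adjusted p = 0.0517) or haloperidol high replicate 7 (0.0508). The call came from the brightest Hlf probe set, at a mean log2 level of 13.5. Another pair of Hlf probe sets, at 13.4 and 13.5, differed by -0.06 ± 0.05 and 0.06 ± 0.04 (adjusted p = 0.57 and 0.536), so the probe sets of this gene disagreed.

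Whether the members moved together from array to array was asked with deviations from group means. Of 27 relations between Dbp and another member (9 genes in 3 experiments), 11 passed an adjusted p of 0.05 in permutation tests within groups: 6 among lesion, 2 among TTX and 3 among neuroleptic arrays. In the 22 lesion arrays, Nr1d1 followed Dbp with r = 0.83 and rho = 0.80 (permutation test, adjusted p = 0.00018 and 0.000405). It did so within each block too, with r of 0.80 and 0.61, and without the 2 arrays farthest from the Dbp median, with r = 0.81. With block means also removed its r was 0.75 (permutation test, adjusted p = 0.00351), and this relation alone of the 27 still passed.

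With only group means removed, Per3 followed Dbp in all 3 experiments. Its r was 0.84 in the lesion arrays (rho 0.78), 0.62 in the 20 TTX arrays (rho 0.70) and 0.51 in the 63 neuroleptic arrays (rho 0.46), with adjusted p of 0.00018, 0.0133 and 0.000607 in permutation tests. Within blocks its r was 0.56 and 0.81 for lesion, 0.35 and 0.69 for TTX, and 0.34, 0.00, 0.48 and 0.39 in the neuroleptic experiment. Without the 2 farthest arrays it was 0.81, 0.53 and 0.46. With block means also removed it was 0.62, 0.53 and 0.25 and passed in no experiment (permutation test, adjusted p = 0.0562, 0.128 and 0.156). Nr1d2 fell into separate ranges in the lesion blocks, so only its r within them is given, 0.44 and 0.23. In the neuroleptic arrays Nr1d2 had r = 0.45 and rho = 0.43 (permutation test, adjusted p = 0.00432 and 0.00607). Within blocks it was 0.70, 0.18, -0.09 and 0.10, so the relation was not seen in blocks 2 to 4; without the 2 farthest arrays r was 0.40.

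Bmal1 ran against Dbp in deviations from group means. In the lesion arrays r was -0.64 and rho -0.60 (permutation test, adjusted p = 0.00675 and 0.015), with r of -0.48 and 0.30 within the blocks, so the relation did not hold in the second block. In the TTX arrays r was -0.49 (adjusted p = 0.0771), with -0.45 and -0.43 within blocks. In the neuroleptic arrays r was -0.37 (adjusted p = 0.00921) and rho -0.29 (adjusted p = 0.0708), with 0.05, -0.33, -0.37 and -0.52 within blocks. Without the 2 farthest arrays the 3 values of r were -0.62, -0.40 and -0.38. With block means also removed they were -0.23, -0.44 and -0.30, and none passed (permutation test, adjusted p = 0.441, 0.2 and 0.129).

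Nr1d1 in the TTX arrays had r = 0.60 and rho = 0.57 with Dbp (permutation test, adjusted p = 0.0179 and 0.0301), 0.38 and 0.57 within blocks, and 0.67 without the 2 farthest arrays. In the neuroleptic arrays its r was 0.12 (adjusted p = 0.487). Per1 and Per2 followed Dbp in the lesion arrays, with r of 0.62 and 0.60 and rho of 0.60 and 0.62 (permutation test, adjusted p = 0.00895 and 0.0133 for r). Within blocks Per1 had r of 0.47 and 0.36 and Per2 of 0.03 and 0.85, and without the 2 farthest arrays they had 0.57 and 0.55. With block means also removed Per1 and Per2 had 0.41 and 0.37 and did not pass (permutation test, adjusted p = 0.156 and 0.255). Cry1, Cry2 and Clock had r between -0.28 and 0.26 with Dbp, and none passed with all arrays; Clock and Per2 in the TTX arrays passed without the 2 farthest, with r of 0.55 and 0.54 (permutation test, adjusted p = 0.0475 for each). Arrays with neighbouring numbers may not be independent of each other, and the permutations do not take that into account.

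**Figure D5:**
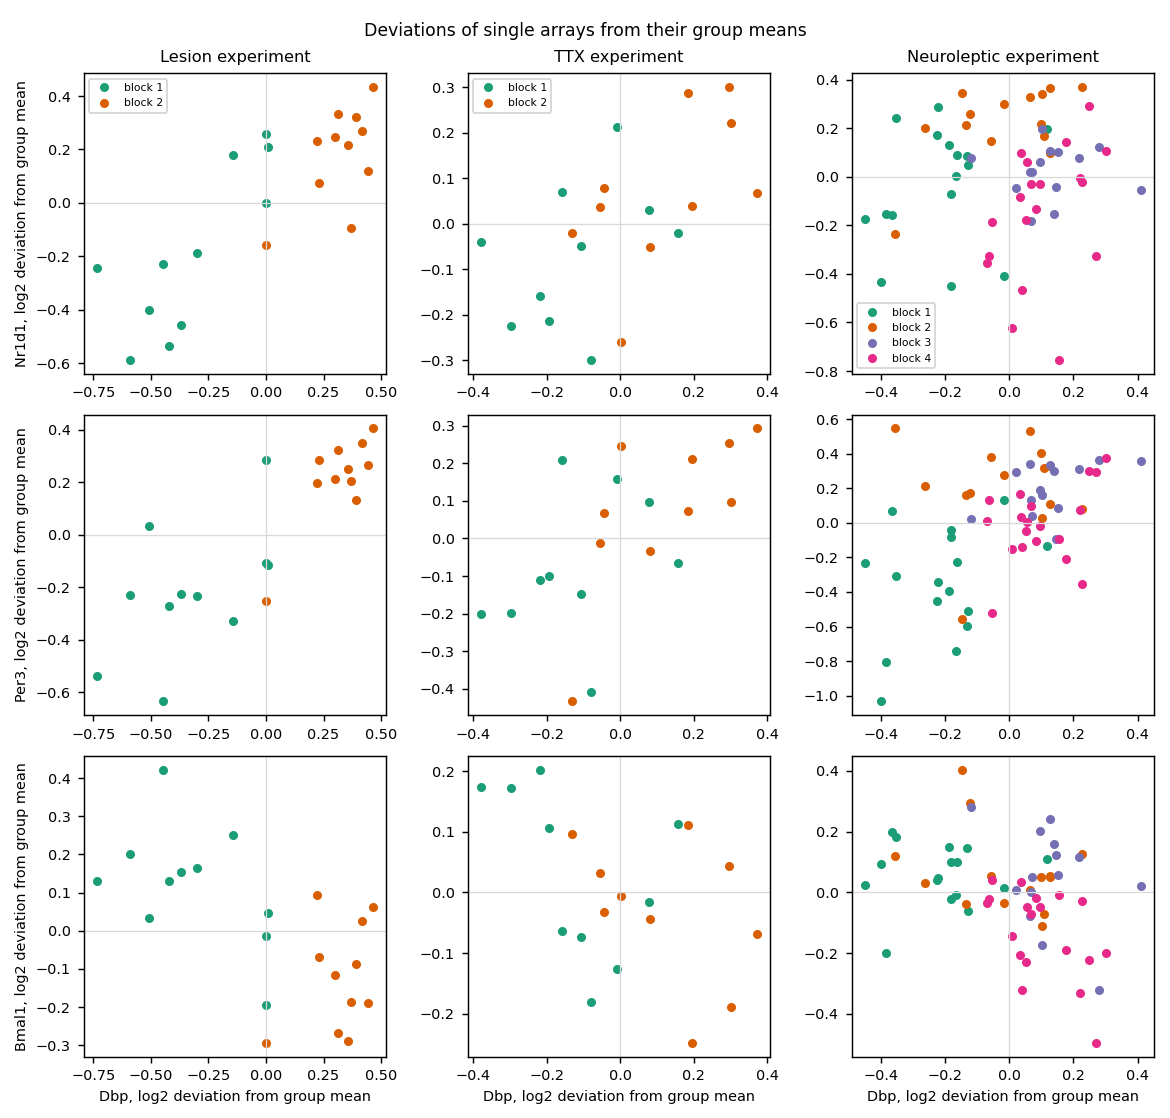
Deviation of single arrays from their group means (log2) for Dbp (x axis) against Nr1d1, Per3 and Bmal1 (y axes) in the 3 experiments, coloured by block. In the lesion panels Nr1d1 rises with Dbp (r = 0.83) and Bmal1 falls (r = -0.64), and most block 2 arrays lie to the right of block 1.

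Per1 was compared with the mean of the same 6 activity-regulated genes, 1 of 12 relations of Per1 and Per2 with this and the glucocorticoid list. In the 63 neuroleptic arrays r was 0.57 and rho 0.58 (permutation test, adjusted p = 0.00012 for each), with r of 0.57, 0.38, 0.32 and 0.71 in the 4 blocks and 0.54 without the 2 farthest arrays. In the lesion and TTX arrays r was -0.12 and 0.21, and did not pass. Per2 had r = 0.32 with the same genes in the neuroleptic arrays (adjusted p = 0.0483) and rho = 0.32 (adjusted p = 0.0537), with r of 0.35, 0.54, 0.28 and 0.54 within blocks and 0.36 without the 2 farthest arrays. With the 4 glucocorticoid-responsive genes, Per2 had r = 0.56 and rho = 0.60 in the lesion arrays (permutation test, adjusted p = 0.0483 and 0.0301), but r of -0.12 and 0.60 within the blocks and 0.43 without the 2 farthest arrays.

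Among 10127 genes ranked by their correlation with Dbp over the 63 neuroleptic arrays, deviations from group means again, the clock gene closest to Dbp was Bhlhe41, an E-box repressor, at rank 11 with r = 0.65, and with r = 0.66 in the lesion and 0.72 in the TTX arrays. Tef, another PAR bZIP factor, ranked 69, Per3 145 and Nr1d2 321. At the other end Nfil3 stood 233 and Bmal1 442 from the lowest. With block means also removed, r in the neuroleptic arrays was 0.48 for Bhlhe41, 0.50 for Tef, 0.25 for Per3 and 0.28 for Nr1d2. It was then -0.11 for Nfil3 and -0.30 for Bmal1. The 5 genes most like Dbp were Nudt16l1 (r = 0.73), Copz1 (0.72), Nat8f3 (0.68), Hnrnpdl (0.68) and Eif6 (0.66), and the 5 least like it Marcks (-0.70), Khdrbs3 (-0.69), Scg2 (-0.68), Fez1 (-0.68) and Plekha3 (-0.67). All 10 values were closer to 0 with block means also removed. In this order they became 0.61, 0.56, 0.42, 0.35 and 0.39 for the first 5, and -0.42, -0.33, -0.43, -0.13 and -0.47 for the last 5. In the lesion arrays the first 5 had r of 0.56, 0.11, -0.14, 0.62 and 0.11 in this order, and in the TTX arrays 0.59, 0.34, 0.41, 0.58 and -0.07. The last 5 had 0.20, -0.72, -0.47, 0.66 and 0.26 in the lesion arrays and -0.25, -0.37, -0.34, 0.04 and -0.77 in the TTX arrays, so 4 of the 10 genes changed sign in the lesion arrays and 2 in the TTX arrays. All these correlations share arrays, blocks and normalisation and are given without p.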

How the data were processed

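RNA from rat frontal cortex was measured on Affymetrix rat arrays, 22, 20 and 63 in the 3 experiments. The deposited table gives 1 linear intensity per probe set and array, already scaled by the authors as its values show; the software is not given in the sources used here. Intensities were quantile-normalised within an experiment (lesion and TTX together for their joint fit), raised to a floor of 32 and taken to log2. After removal of 57 control probe sets, the 60% with the highest mean, 18625, were tested with limma 3.58.1 under R 4.3.3 (lmFit and eBayes, group means, no covariate) and Benjamini-Hochberg adjustment; an adjusted p under 0.05 was a call. The 7 neuroleptic groups shared 1 spread, and a drug mean weights its 3 dose levels equally. Blocks were tested with limma's F test in a model with groups. Correlations used 1e+05 two-sided permutations within groups, Benjamini-Hochberg adjusted over 27 relations with Dbp and 12 of Per1 and Per2 (Python 3.11.15, numpy 2.4.6). Symbols came from the platform's annotation table, and promoters from RefSeq. Figures were drawn with matplotlib 3.10.9. Scripts were tested on simulated data. No 2 arrays held identical values, and replicate numbers follow sample order. Values are given for a selection of the members' probe sets and comparisons, each gene by its brightest probe set unless another is named. Other clock genes are named where their unadjusted or adjusted values stood out, and the 5 genes most and least like Dbp are given. The members, lists, blocks and tests were chosen with earlier results of these data known. Averaging runs of consecutive arrays, leaving out arrays for the block tests and for residual SDs, moving the limits between blocks, and the relations of Per1 and Per2 with gene lists were added after values were seen.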

Additional observations from a re-analysis of the deposited data

Results flagged for a closer look

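In 90 sets of values (10 genes in the 9 groups of 8 to 10 arrays), 5 values on 4 arrays lay far from the rest of their group by Dixon's criterion, which chance alone reaches in about 1 in 20. A count of 5 in 90 sets is near that share, so the number of such values does not stand out. All 5 were the lowest value of a neuroleptic group. Haloperidol high replicate 8, an array that also stood apart from its experiment, had Per1 at 7.01, with the next array at 9.56, and Nr1d1 at 10.5, with the next at 11.0. The Per1 difference between high haloperidol and vehicle was -0.43 ± 0.26 with this array and -0.06 without it; over all arrays left out 1 at a time its smallest adjusted p was 0.549 (limma). Haloperidol medium replicate 8, the other such array, had Bmal1 at 10.9 (next 11.2). Clozapine medium replicate 1 had Per3 at 9.52 (next 10.5), and haloperidol medium replicate 4 had Nr1d2 at 13.2 (next 13.4).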

How the results depend on the processing

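The 14 comparisons gave 0 member calls throughout when 1 array was left out at a time, and also with values as deposited, a floor of 128, no filter or the brightest 40%, array weights and without the arrays that stood apart. The exceptions were medium clozapine against vehicle, with 2 calls with the block of sample numbers as a term and 1 with the sample number as a covariate, and high haloperidol, with 2 under each. With runs of consecutive arrays averaged, these and all other comparisons gave 0. For blocks in the lesion experiment the 4 calls became 7 with the sample number in place of blocks, 3 to 5 with 1 array left out, and 0 with runs averaged, which leaves 9 values. For blocks in the TTX experiment the 2 calls became 1 with values as deposited, 1 with the sample number, 0 to 2 with 1 array left out, 0 with runs averaged, and 2 or 0 with the limit between blocks moved to the change of group before or after it; the lesion count was 3 with either limit. In the neuroleptic experiment, leaving out 1 array gave 10 to 12. Of the 11 relations with Dbp, 1 passed with group and block means removed. The cause of these changes was not tested. No called value changed sign under these settings, though some differences near 0 did. Within single blocks some called relations had the other sign, such as Dbp with Bmal1 in lesion block 2 (r = 0.30). No paired analysis was possible because replicate numbers follow sample order and the labels give none that groups share. Signal was not checked against background, since no detection calls were used here.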
